A study of Sus scrofa with 43 samples.

Results

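The antioxidant and selenoprotein enzymes described here are SOD1, SOD2, CAT, GPX1, GPX2, GPX4, PRDX3, HMOX1, TXNRD1 and SELENOS, 10 listed genes followed in the jejunum of piglets from birth to 4 wk after weaning. A member was taken from the array by the RefSeq transcript accession printed beside each spot, with the version dropped. A probe was found for 9 of the 10 genes, and no spot carried a pig transcript of SOD2. All 9 passed the filter on dim genes, GPX2 only through 3 groups after weaning in which it was high, and they are 9 of the 12771 genes tested and of the 35884 transcript accessions on the array.

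Gene expression was measured in jejunal scrapings on 43 one-colour Cy3 arrays, each hybridised with the RNA of a single piglet of a Hypor sow. The 23 control piglets came from sows on standard feed, and the 20 piglets of the amoxicillin arm came from sows that received amoxicillin, a penicillin-type antibiotic, in the feed by mouth every day at 15 mg/kg body weight from the week before the expected farrowing until farrowing. The piglets themselves were not dosed. Per the methods, 1 apparently healthy male piglet per sow was killed at each of 5 ages: day 1, day 7, weaning, 4 d postweaning and 4 wk postweaning. The control groups held 6, 6, 3, 5 and 3 piglets in that order, and each amoxicillin group held 4.

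Oxygen-using cells make superoxide, which superoxide dismutases turn into hydrogen peroxide, and peroxide is then removed by catalase, by glutathione peroxidases and by peroxiredoxins. Several of these proteins carry selenocysteine, the selenium form of cysteine, which is built in while the protein is made. In the gut wall they act at a surface that meets food, bile, microbes and, in the suckling animal, milk.

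All levels are log2 intensities after background correction and quantile scaling, so a difference of 1 is a 2-fold difference. A level can be compared between arrays for 1 gene, not between genes, because probes differ in brightness. Adjusted p-values are Benjamini-Hochberg values over all 12771 genes from a single limma fit of the 10 groups. A treatment difference was called at an adjusted p under 0.05 with a log2 change beyond 1.5 in either direction, and a difference between ages at an adjusted p under 0.05. Intestinal absorptive cells were well represented on all 43 arrays: the summed log2 level of the 7 enterocyte markers with a probe (FABP1, FABP2, ANPEP, APOA1, APOA4, SLC5A1 and SLC15A1) lay between 16.98 and 18.53. Fewer gene spots stood well above background in the amoxicillin arm. On day 1 the ranges were 28042 to 29827 in control and 20321 to 25580 in the amoxicillin arm, and on day 7 they were 25791 to 28644 and 22008 to 26290. At weaning they were 25560 to 27339 and 20222 to 22838, and 4 d later 26097 to 28651 and 20668 to 24986. The arms thus did not overlap at 3 of the 5 ages. At 4 wk postweaning they did, with 15937 to 29479 and 16150 to 20940, the lowest control value being that of piglet 34. The part of this difference in the treatment contrasts was not tested.

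A pair of weaning arrays stood apart from the rest. Control piglet 7 and amoxicillin piglet 8 had summed B and plasma cell markers of 14.90 and 15.37, where the other weaning arrays lay between 8.36 and 11.10. Their summed ileal enterocyte markers were 15.99 and 16.00, and amoxicillin piglet 8 had the lowest enterocyte sum of the series at 16.98. The main results that rest on the weaning groups are therefore given with and without these piglets.

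More members passed the F-test over ages than a treatment contrast, but these tests are unlike. The F-test drew on all 5 ages of an arm and had no fold threshold. A treatment call was made age by age and needed a minimum log2 change as well. The counts therefore do not rank age against treatment. By the F-test over the 5 ages, 5 of the 9 members (55.6%) differed in control and 5 (55.6%) in the amoxicillin arm, against 30.5% and 47.0% of all genes. HMOX1, GPX2, TXNRD1 and CAT differed between ages in both arms (44.4% of members, 21.7% of all genes), GPX4 in control and SELENOS in the amoxicillin arm. Because of how GPX2 entered the test, its calls add no support to these counts. Whether the shares of members exceeded those of all genes was not tested. SOD1, GPX1 and PRDX3 passed in neither arm. Of the 72 steps between neighbouring ages, 7 passed, 5 of them over the days that followed weaning. The GPX2 step of the amoxicillin arm is among them and adds no support either. In age order, 1.43%, 0.125%, 2.53% and 0% of all genes passed the 4 control steps, and 0.736%, 11.3%, 6.37% and 12.7% those of the amoxicillin arm. Without the weaning piglets with high B cell markers the counts were 6 in control and 5 in the amoxicillin arm, with 6 steps. Neighbouring ages shared a slide in part, and the first and last age of an arm shared none. With slide as a fixed block no member differed between control ages (0.532% of all genes passed), and as a random block CAT lost its call in both arms and TXNRD1 in control, where 13.5% and 27.1% of all genes passed in control and in the amoxicillin arm. In scrapings, fewer cells of a type and less RNA per cell cannot be told apart.

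**Figure D1:**
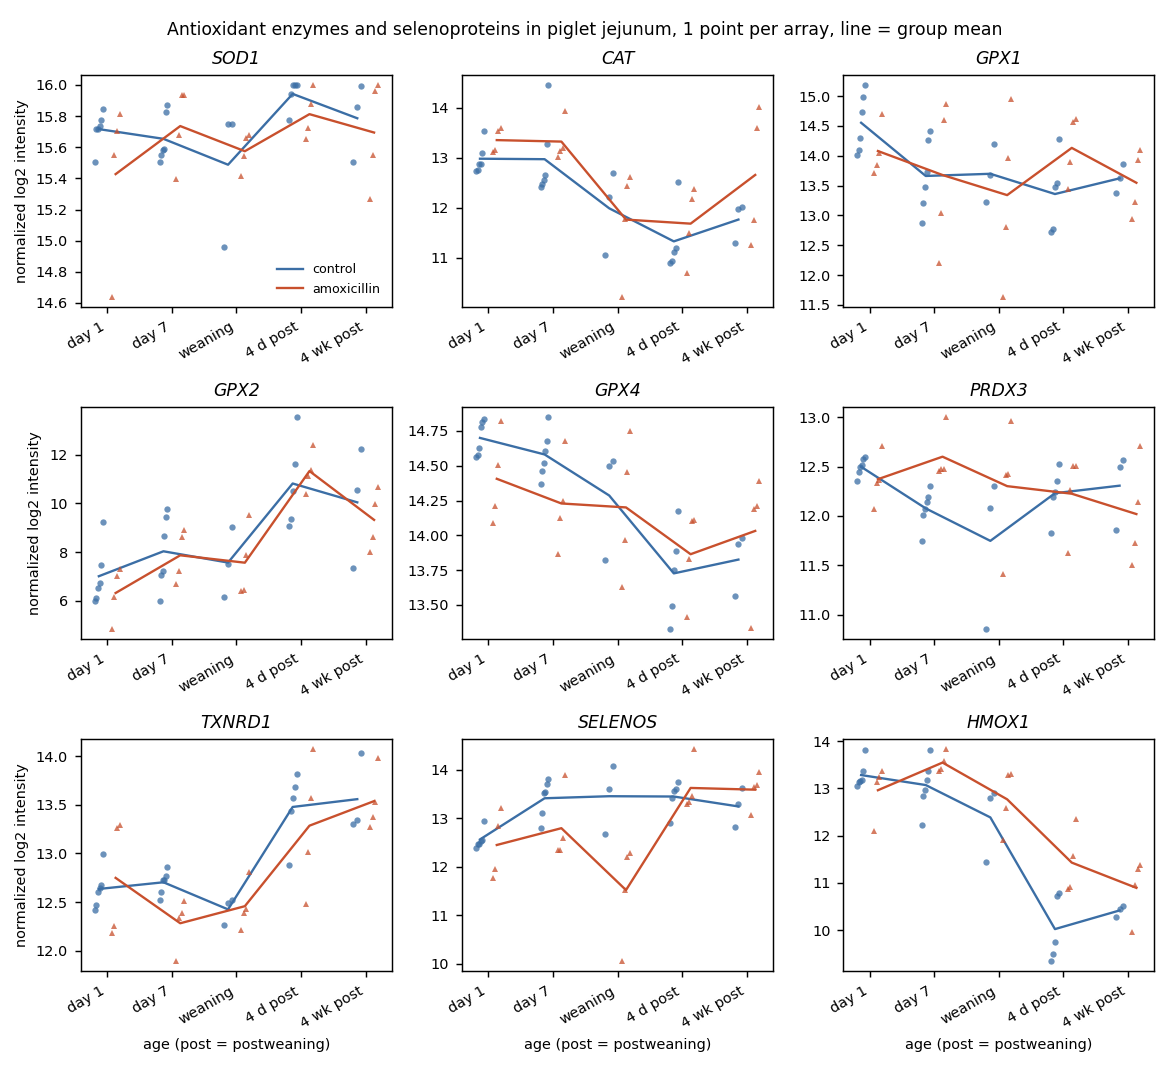
Log2 intensity of each of the 9 members (vertical axes) at the 5 ages (horizontal axes) in both arms, with 1 point per piglet and lines through the group means. HMOX1 ended lower than it began, from 13.28 to 10.42 in control, while GPX2 and TXNRD1 ended higher, and SELENOS dipped at weaning in the amoxicillin arm to a mean of 11.52.

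SOD1, the copper-zinc superoxide dismutase of the cytosol, was near the top of the scanner's range at every age. It ranged from 14.64 to 16.00 over the 43 arrays, and 38 of its 86 spots (44.2%), on 26 arrays, were saturated. On 6 arrays its value lay within 0.01 of the ceiling of 16.00, so an increase above that level could not be seen. The control group means were 15.72 ± 0.11 (SD, n = 6) on day 1 and 15.94 ± 0.10 (n = 5) at 4 d postweaning, and those of the amoxicillin arm ran from 15.43 ± 0.54 on day 1 to 15.81 ± 0.16 at 4 d postweaning (n = 4 each). No difference between ages passed the test (adjusted p = 0.430 in control and 0.458 in the amoxicillin arm).

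CAT, the haem enzyme catalase that splits hydrogen peroxide in peroxisomes, was high in suckling piglets and lower from weaning on. In control its lowest, median and highest values were 12.74, 12.88 and 13.52 on day 1 and 12.41, 12.61 and 14.45 on day 7. The 3 weaning controls had 11.05, 12.22 and 12.69, the 5 controls killed 4 d later 10.90, 10.93, 11.11, 11.18 and 12.50, and the 3 oldest controls 11.29, 11.98 and 12.02. All control values after weaning thus lay below all control values of day 1. The control groups of day 1 and 4 wk postweaning did not overlap for 36.9% of all genes. In the amoxicillin arm the values were 13.12, 13.16, 13.52 and 13.60 on day 1, then 13.02, 13.14, 13.19 and 13.94 on day 7, and 10.22, 11.77, 12.43 and 12.62 at weaning. The piglets of 4 d postweaning had 10.70, 11.49, 12.17 and 12.37, and those of 4 wk postweaning 11.25, 11.76, 13.59 and 14.01, of which 2 stood at the suckling level and 2 did not.

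The difference between ages of CAT passed in both arms (adjusted p = 0.00816 in control and 0.00859 in the amoxicillin arm). With slide as a random block the values were 0.0735 and 0.0560, and as a fixed block 0.627 and 0.263. The step from day 7 to weaning fell by 1.56 in the amoxicillin arm (SE 0.51, adjusted p = 0.0423), without overlap between the groups and with probe changes of -2.58 to -0.81. In control the same step was -0.98 (95% interval -2.02 to 0.05, adjusted p = 0.538), with all 9 probes lower as well. In that step 11.3% of all genes passed in the amoxicillin arm and 0.125% in control, and the groups of 8.99% of all genes did not overlap in the amoxicillin arm. Without the weaning piglets with high B cell markers the control step was -0.51 (adjusted p = 0.879) and the amoxicillin step -1.05 (adjusted p = 0.173), and the latter also missed the threshold without amoxicillin piglet 4, 20, 21 or 24 of day 7 or piglet 8 or 25 of weaning.

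GPX1, the glutathione peroxidase of the cytosol and a selenoprotein, showed no difference between ages that passed the test (adjusted p = 0.187 in control and 0.546 in the amoxicillin arm). Its control mean was 14.55 ± 0.48 (n = 6) on day 1 and between 13.36 and 13.70 at the 4 later ages. Its amoxicillin values were widely spread on day 7, from 12.20 to 14.86, and at weaning, from 11.64 to 14.95. At weaning the highest value was that of amoxicillin piglet 8.

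GPX2, the glutathione peroxidase of the gastrointestinal lining and a selenoprotein, had the widest range of the members, from 4.85 to 13.54. Its single probe was well above background on 35 of 43 arrays, among them 5 of 6 control and 2 of 4 amoxicillin arrays of day 1, 2 of 3 and 2 of 4 at weaning, and all 9 at 4 d postweaning. Its values on the other arrays lay at background, so differences from those groups are imprecise. In control its lowest, median and highest values were 5.98, 6.63 and 9.22 on day 1 and 5.99, 7.95 and 9.79 on day 7. The weaning controls had 6.16, 7.53 and 9.02, those killed 4 d later 9.09, 9.34, 10.50, 11.61 and 13.54, and the oldest controls 7.35, 10.57 and 12.21. In the amoxicillin arm they were 4.85, 6.14, 7.00 and 7.29 on day 1, then 6.69, 7.23, 8.63 and 8.91 on day 7, and 6.39, 6.46, 7.88 and 9.53 at weaning. The amoxicillin piglets of 4 d postweaning reached 10.40, 11.13, 11.37 and 12.41, and those of 4 wk postweaning had 8.00, 8.62, 9.97 and 10.69. In each arm every piglet at 4 d postweaning lay above every piglet at weaning.

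GPX2 was tested only because it was high at 4 d postweaning in both arms and at 4 wk postweaning in the amoxicillin arm. The steps from weaning and the amoxicillin span use those groups, so their p-values add no support. From weaning to 4 d postweaning GPX2 rose by 3.76 in the amoxicillin arm (SE 0.97, adjusted p = 0.0163). In that step 6.37% of all genes passed, 3.05% as higher, and the groups of 5.93% did not overlap. The control step was 3.25 (95% interval 1.23 to 5.27, adjusted p = 0.0651) and did not pass. There 2.53% of all genes passed, and the groups of 11.8% did not overlap. Without the weaning piglets with high B cell markers, which had the highest GPX2 of their groups, the control step was 3.97 (adjusted p = 0.0249) and the amoxicillin step 4.42 (adjusted p = 0.0055). From day 1 to 4 wk postweaning GPX2 rose by 3.03 in control (adjusted p = 0.0174), and the span also passed in the amoxicillin arm (adjusted p = 0.0164), where 25.6% and 31.4% of all genes passed. With slide as a random block the control span had an adjusted p of 0.0635, and with slide as a fixed block neither span passed (0.605 and 0.228). The first of these lost its call without control piglet 13 or 37 of 4 wk postweaning (the adjusted p reached 0.195), and the second without amoxicillin piglet 17 of day 1 or 37 of 4 wk postweaning (up to 0.0667).

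GPX4, the selenoprotein that reduces lipid peroxides in membranes, drifted down with age in control. Its lowest, median and highest control values were 14.57, 14.70 and 14.83 on day 1 and 14.37, 14.56 and 14.85 on day 7, and the values were 13.82, 14.50 and 14.54 at weaning. The controls killed 4 d later had 13.33, 13.49, 13.75, 13.89 and 14.18, and the oldest 13.56, 13.94 and 13.98. The last control group lay wholly below the first, and the control ages differed (adjusted p = 8.5e-04). Between the first and last control age the groups of 36.9% of all genes did not overlap, and 25.6% of all genes passed. From day 1 to 4 wk postweaning GPX4 fell by 0.87 in control (SE 0.24, adjusted p = 0.0062), and the adjusted p was 0.0511 without control piglet 13 of 4 wk postweaning and 0.996 with slide as a fixed block. The amoxicillin values of day 1 were 14.09, 14.21, 14.50 and 14.82, those of 4 wk postweaning 13.34, 14.19, 14.21 and 14.39, and the groups overlapped. The span in that arm was -0.37 (95% interval -0.86 to 0.12, adjusted p = 0.250), and whether it differed from the control span was not shown (adjusted p of the interaction over ages = 0.679).

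PRDX3, the peroxiredoxin of mitochondria, was measured by 15 probes and kept within a narrow range, from 10.86 to 13.00. No difference between ages passed (adjusted p = 0.223 in control and 0.429 in the amoxicillin arm). Control piglet 25 at weaning, with 10.86, was the lowest array, and it also had the lowest SOD1 of the control arm, at 14.96.

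TXNRD1, the selenoprotein that recharges thioredoxin in the cytosol and so feeds the peroxiredoxins, was higher after weaning. In control its lowest, median and highest values were 12.42, 12.62 and 13.00 on day 1 and 12.52, 12.73 and 12.87 on day 7, and the values were 12.26, 12.49 and 12.53 at weaning. The controls killed 4 d later had 12.88, 13.43, 13.57, 13.69 and 13.82, and the oldest 13.31, 13.34 and 14.03. All control piglets after weaning lay above all those at weaning. From weaning to 4 d postweaning the control groups of 11.8% of all genes did not overlap. The amoxicillin values were 12.19, 12.25, 13.27 and 13.29 on day 1, then 11.90, 12.34, 12.38 and 12.51 on day 7, and 12.21, 12.38, 12.43 and 12.81 at weaning. The amoxicillin piglets of 4 d postweaning had 12.48, 13.02, 13.57 and 14.07, which overlapped with those at weaning, and the oldest had 13.27, 13.37, 13.53 and 13.99.

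The ages differed for TXNRD1 in both arms (adjusted p = 0.00127 in control and 6.8e-04 in the amoxicillin arm). From weaning to 4 d postweaning it rose by 1.05 in control (SE 0.28, 2.07-fold, adjusted p = 0.0322), where 1.49% of all genes passed as higher, and all 4 probes were higher, by 0.77 to 1.33. The same step in the amoxicillin arm was 0.83 (95% interval 0.29 to 1.37, adjusted p = 0.0535), with all 4 probes higher, by 0.38 to 1.03. Without the weaning piglets with high B cell markers the control step still passed (adjusted p = 0.0314) and the amoxicillin step was 0.82 (adjusted p = 0.0676). Within the slide that held both ages the control step was 0.46 (1 array against 3), and with slide as a random block it was 0.95 (adjusted p = 0.131). From day 1 to 4 wk postweaning TXNRD1 rose by 0.92 in control (adjusted p = 0.0086) and by 0.79 in the amoxicillin arm (adjusted p = 0.0221). These calls were narrow: the control step missed the threshold without control piglet 24 or 25 of weaning or piglet 29, 30, 31 or 32 of 4 d postweaning (up to 0.117). The control span missed it without piglet 34 of 4 wk postweaning (0.126) and with slide as a random block (0.83, adjusted p = 0.0733), and it was 0.12 with slide as a fixed block, and the amoxicillin span without piglet 2 or 17 of day 1 or 40 of 4 wk postweaning (up to 0.105) and with slide as a fixed block (0.0872).

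SELENOS, a selenoprotein of the endoplasmic reticulum membrane that takes part in the removal of misfolded proteins, took a different course in the amoxicillin arm around weaning. Its lowest, median and highest control values were 12.39, 12.51 and 12.94 on day 1 and 12.79, 13.53 and 13.81 on day 7. The weaning controls had 12.68, 13.61 and 14.07, those killed 4 d later 12.90, 13.42, 13.57, 13.60 and 13.75, and the oldest 12.82, 13.29 and 13.63, and no difference between control ages passed (adjusted p = 0.115). The amoxicillin values were 11.77, 11.95, 12.85 and 13.22 on day 1, then 12.35, 12.35, 12.60 and 13.88 on day 7, and 10.06, 11.53, 12.21 and 12.28 at weaning. After weaning they were 13.29, 13.34, 13.45 and 14.42 at 4 d and 13.07, 13.65, 13.68 and 13.95 at 4 wk. The 4 amoxicillin piglets at weaning thus lay below the 3 control piglets of that age, below all amoxicillin piglets of day 7 and below all amoxicillin piglets after weaning. In this arm the groups of 8.99% of all genes did not overlap from day 7 to weaning. From weaning to 4 d postweaning those of 5.93% did not.

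At weaning SELENOS was lower in the amoxicillin arm than in control by 1.94 on the log2 scale (log2 change -1.94, SE 0.42, 95% interval -2.78 to -1.09, adjusted p = 0.0033), a 3.83-fold difference. It was the only member called among the 45 treatment contrasts, at an age where 3.41% of all genes were called and the groups of 12.7% did not overlap. Leaving out 1 array at a time gave -2.32 to -1.45 with an adjusted p of 0.0018 to 0.0329, and without amoxicillin piglet 8 the change of -1.45 was within the fold threshold. Without control piglet 7 as well it was -1.84 (adjusted p = 0.0068). The differences at the 4 other ages were -0.11 on day 1, -0.62 on day 7, 0.18 at 4 d postweaning and 0.35 at 4 wk postweaning, with adjusted p-values of 0.759 or more. SELENOS was also the only member whose treatment difference depended on age (adjusted p = 0.0410, where 6.18% of all genes passed), and this call was lost in 22 of the 43 fits that each left out 1 array, with an adjusted p of up to 0.167. With 1 arm per slide, the effects of the sow's treatment and of the slide cannot be told apart on any of them. With slide as a random block the change at weaning was -1.80 (adjusted p = 0.0526). With the scanner's processed signal it was -1.27 (adjusted p = 0.0702). The numbers of gene spots well above background did not overlap between the arms at weaning either.

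Within the amoxicillin arm SELENOS fell by 1.28 from day 7 to weaning (SE 0.39, adjusted p = 0.0276) and rose by 2.11 from weaning to 4 d postweaning (SE 0.39, 4.31-fold, adjusted p = 0.0015). In these steps 11.3% and 6.37% of all genes passed. The rise was also seen among arrays of 1 slide, at 2.20 between 3 and 4 arrays, and kept its call in all 43 fits without 1 array and under the 14 alternatives, which gave 1.49 to 2.20. It was 1.62 (adjusted p = 0.0038) without the weaning piglets with high B cell markers. The fall was -0.79 (adjusted p = 0.140) without the weaning piglets with high B cell markers, and was lost without amoxicillin piglet 21 of day 7 or 8 of weaning (adjusted p up to 0.168). Over the whole span it rose by 1.14 in the amoxicillin arm (adjusted p = 0.0223, lost without piglet 17 or 21 of day 1 or 40 of 4 wk postweaning, up to 0.0934, and with slide as a random block). Its single probe allows no comparison between probes. SPINK4, a goblet cell marker, fell by 0.53 in the amoxicillin arm from day 7 to weaning (adjusted p = 0.0327, and 0.0676 without the weaning piglets with high B cell markers). It rose by 0.58 to 4 d postweaning (adjusted p = 0.0333). Its median over the arrays was 16.00, at the scanner's ceiling. CLCA1, the other goblet cell marker tested, did not fall in the first step or rise in the second. The median changes of both markers were -0.26 and 0.19. The summed level of the 2 goblet cell markers with a probe, of 6 listed, ranged from 16.19 to 16.40, from 15.65 to 16.53 and from 16.12 to 16.47 at these ages. Their part in the course of SELENOS was not tested.

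HMOX1, the inducible haem oxygenase that breaks haem into biliverdin, iron and carbon monoxide, had the clearest course with age. Its lowest, median and highest control values were 13.05, 13.16 and 13.82 on day 1 and 12.23, 13.08 and 13.82 on day 7. The weaning controls had 11.45, 12.80 and 12.91, those killed 4 d later 9.35, 9.49, 9.76, 10.72 and 10.79, and the oldest 10.29, 10.45 and 10.51. All control piglets after weaning lay below all those of the earlier ages. The control groups of weaning and 4 d postweaning did not overlap for 11.8% of all genes. In the amoxicillin arm the values were 12.10, 13.13, 13.24 and 13.38 on day 1, then 13.37, 13.40, 13.59 and 13.83 on day 7, and 11.91, 12.59, 13.28 and 13.30 at weaning. The piglets of 4 d postweaning had 10.88, 10.92, 11.57 and 12.35, of which the highest overlapped with the weaning group, and the oldest had 9.95, 10.96, 11.29 and 11.38.

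The difference between ages of HMOX1 passed in control (adjusted p = 9.5e-10) and in the amoxicillin arm (adjusted p = 3.2e-06). From weaning to 4 d postweaning it fell by 2.36 in control (SE 0.40, 5.15-fold lower, adjusted p = 0.0034) and by 1.34 in the amoxicillin arm (SE 0.39, 2.53-fold lower, adjusted p = 0.0333), where 1.04% and 3.32% of all genes passed as lower. The changes of its 3 probes were -2.57 to -2.24 in control and -1.43 to -1.23 in the amoxicillin arm. Without the weaning piglets with high B cell markers the steps were -2.83 (adjusted p = 1.7e-04) and -1.63 (adjusted p = 0.0065). Within slides the step was -1.60 in control (1 array against 3) and -1.65 in the amoxicillin arm (3 against 4). The amoxicillin step missed the threshold without piglet 25 or 29 of weaning or 10, 32 or 33 of 4 d postweaning (adjusted p up to 0.106). From day 1 to 4 wk postweaning HMOX1 fell by 2.87 in control (adjusted p = 9.1e-07) and by 2.07 in the amoxicillin arm (adjusted p = 9.3e-05), without overlap in either arm, as for 36.9% and 24.5% of all genes. No slide held both of these ages. With slide as a fixed block the control span was -1.26 (adjusted p = 0.906) and the control step from weaning -1.60 (adjusted p = 0.452).

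Macrophages are a known site of HMOX1, and the summed log2 level of the 4 macrophage and monocyte markers with a probe (CD14, LYZ, CD163 and AIF1, of 7 listed) was not lower after weaning. In control it ranged from 12.80 to 15.78 at weaning and from 14.49 to 16.18 in the next group. In the amoxicillin arm the ranges were 13.23 to 15.17 and 14.28 to 16.35. LYZ and AIF1 were the brightest of these markers, with medians of 14.56 and 12.99 against 8.30 for CD163 and 6.91 for CD14. The sum therefore mostly follows LYZ and AIF1. The 3 smooth muscle markers tested differed between ages in control and not in the amoxicillin arm. Of these DES, the muscle filament desmin, had a change of -1.57 (adjusted p = 0.0685) from weaning to 4 d postweaning in control, and -2.15 (adjusted p = 0.0073) without the weaning piglets with high B cell markers. The summed level of the 4 smooth muscle markers with a probe, of 6 listed, ranged in control from 12.26 to 13.85 at weaning and from 10.79 to 13.11 in the next group, and in the amoxicillin arm from 11.69 to 13.87 and from 11.05 to 14.00. The T cell markers rose with age, all 5 tested passing from day 1 to 4 wk postweaning in both arms. In that span 13.4% of all genes passed as higher in control and 12.5% in the amoxicillin arm. CD3D and CD8A had medians of 6.82 and 6.73 over the arrays, under the level of the filter on dim genes. They were thus tested only through groups in which they were high, and their calls are not counted as support. Of the 11 marker lists, 9 had a gene tested, and none of their genes passed an adjusted p of 0.05 between the arms at any age. The part of these cells in the course of HMOX1 was not tested.

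**Figure D2:**
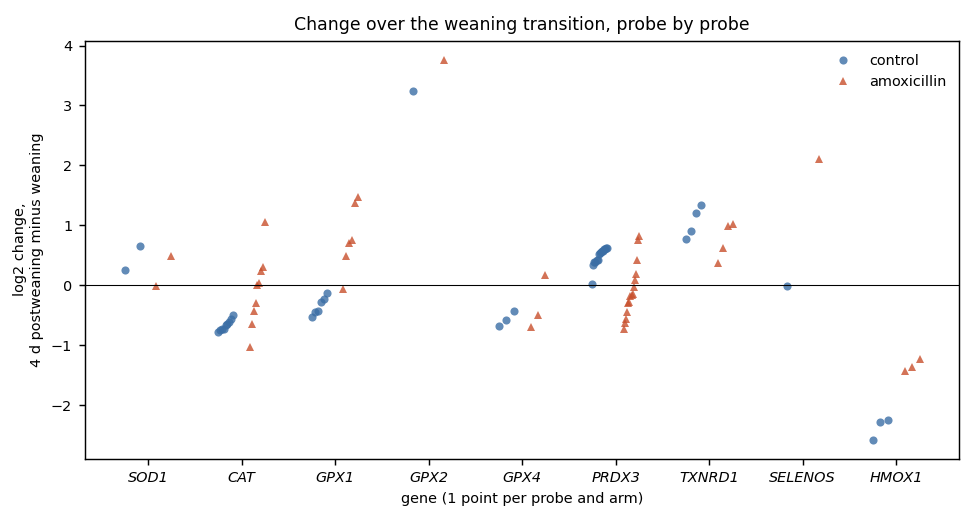
Log2 change from weaning to 4 d postweaning (vertical axis) for every probe of each member (horizontal axis), with 1 point per probe in control and in the amoxicillin arm. All 3 HMOX1 probes lie below 0 and all 4 TXNRD1 probes above 0 in both arms, while the 9 CAT probes of the amoxicillin arm lie on both sides of 0, from -1.04 to 1.06.

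Between the arms at a given age few members differed. Of the 45 treatment contrasts, 2 had an adjusted p under 0.05 by limma (SELENOS at weaning and HMOX1 at 4 d postweaning), where 0.258%, 0%, 7.95%, 3.37% and 4.11% of all genes did so at the 5 ages in order. An unadjusted p under 0.05 was found in 3 (the same and PRDX3 on day 7), against 9.90%, 6.95%, 22.2%, 13.6% and 17.4% of all genes. The groups did not overlap in 4 (these and TXNRD1 on day 7), against 5.79%, 3.36%, 12.7%, 4.13% and 13.8%. None of the members was called on day 1 (0.211% of all genes called), day 7 (0%), at 4 d postweaning (1.54%) or 4 wk postweaning (2.13%). The 95% intervals of the contrasts extended from 0.38 to 2.11 to either side of the estimate.

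At 4 d postweaning HMOX1 was 1.41 higher in the amoxicillin arm than in control (SE 0.37, 95% interval 0.66 to 2.15, 2.65-fold, adjusted p = 0.0270), under the 1.5 needed for a call. The 4 amoxicillin piglets lay above the 5 control piglets, and all 3 probes were higher, by 1.12 to 1.61. At that age 2.98% of all genes passed with a change beyond 1. Without control piglet 29, 31 or 32 or amoxicillin piglet 32, 33 or 34 the adjusted p was above 0.05, reaching 0.101. With slide as a random block the change was 1.35 (adjusted p = 0.194). The numbers of gene spots well above background did not overlap between the arms at this age. Whether the difference depended on age was not shown (adjusted p = 0.209).

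On day 7 PRDX3 had 12.45, 12.47, 12.48 and 13.00 in the amoxicillin arm against 11.74, 12.11 and 12.30 as lowest, median and highest in control. The difference was 0.52 (95% interval 0.00 to 1.04, adjusted p = 0.716), with all 15 probes higher, by 0.14 to 1.02. TXNRD1 was 0.42 lower in the amoxicillin arm (log2 change -0.42, 95% interval -0.91 to 0.07, adjusted p = 0.782), but its 4 probes ran from -1.15 to 0.07 and did not share a direction. Neither difference passed after adjustment.

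The other enzymes gave contrasts that the spread between piglets covered. The GPX1 difference at 4 d postweaning was 0.77 (SE 0.49, adjusted p = 0.559), with all 6 probes higher in the amoxicillin arm. CAT at 4 wk postweaning differed by 0.89 (SE 0.55, adjusted p = 0.434), with all 9 probes higher. GPX2 gave the widest intervals, for example -2.12 to 2.11 at weaning.

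**Figure D3:**
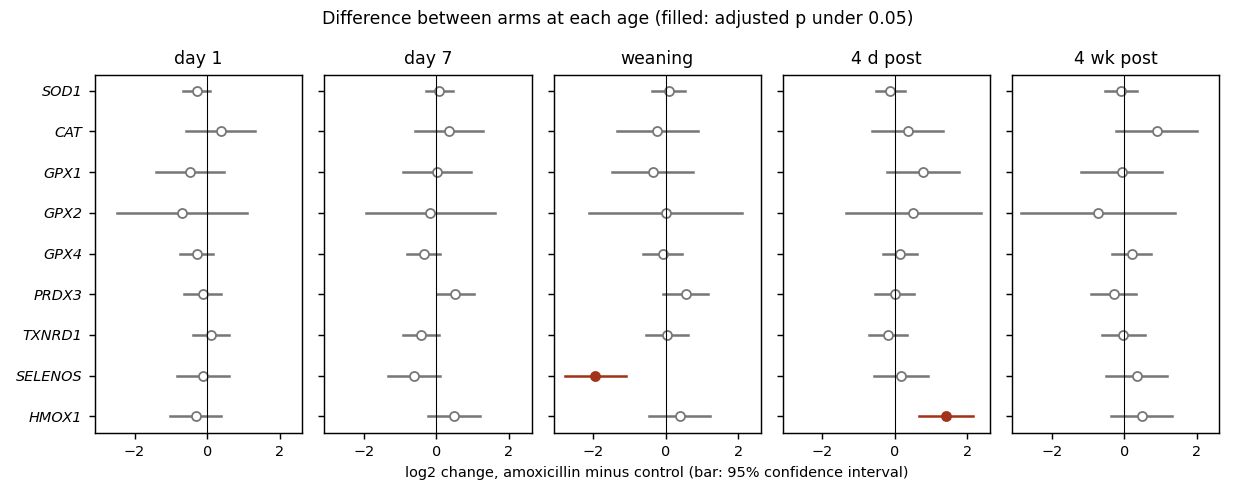
Log2 change, amoxicillin minus control (horizontal axis), of each of the 9 members at each of the 5 ages, with 95% intervals as bars. The interval of SELENOS at weaning (-2.78 to -1.09) and that of HMOX1 at 4 d postweaning (0.66 to 2.15) lie away from 0.

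To place the members among their pathway, 9 wider lists with 118 further genes were read in the same fit, of which 56 had a probe and 44 were tested. By the F-test over ages 14 of the 44 (31.8%) differed in control and 16 (36.4%) in the amoxicillin arm, again against 30.5% and 47.0% of all genes. From day 1 to 4 wk postweaning 6 passed in both arms, and all 6 kept the same direction in both. In that span 25.6% of all genes passed in control and 31.4% in the amoxicillin arm.

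Among other enzymes of peroxide removal stood GPX3, the secreted glutathione peroxidase. Its mean went from 15.41 ± 0.36 (n = 6) on day 1 to 10.30 ± 0.55 (n = 3) at 4 wk postweaning in control, and from 15.15 ± 0.51 to 11.25 ± 0.95 in the amoxicillin arm (n = 4 each). It fell by 5.11 in control (adjusted p = 3.1e-05), and the amoxicillin change was -3.90 (adjusted p = 6.9e-04). Of the 4 genes tested in this list, GPX3 differed between ages in control, and GPX3, PRDX2 and PRDX5 in the amoxicillin arm.

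Among the other selenoproteins DIO1, the deiodinase that activates thyroid hormone, fell over the same span. Its mean went from 12.11 to 7.25 in control, a change of -4.86, where 2 of the 3 last arrays were well above background. The amoxicillin mean went from 12.18 to a level that was not well above background on any of the 4 last arrays. The size of that fall could not be measured. DIO1 passed the filter only through both groups of day 1 and day 7 and the control weaning group, where it was high. Its calls over this span therefore add no support. SELENOF, an endoplasmic reticulum selenoprotein, fell as well, with -0.50 and -0.48. Of the 8 genes tested in this list 2 differed between ages in control and 4 in the amoxicillin arm. SELENOI at 4 wk postweaning (log2 change -1.52, adjusted p = 0.0360) was the only treatment call among the 220 contrasts of the wider lists, and it was -1.17 (adjusted p = 0.0722) with a background offset of 50 and -1.09 (adjusted p = 0.220) with arrays scaled to a common 75th percentile.

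In the haem and iron list HPX, the haem-binding plasma protein hemopexin, fell from day 1 to 4 wk postweaning, with a change of -3.33 in control, where 2 of the 3 last arrays were well above background. In the amoxicillin arm HPX was lower as well. None of the 4 last arrays there was well above background, so the size of that fall could not be measured. Among the glutathione transferases MGST1, a membrane-bound enzyme that also reduces peroxides, rose by 2.53 and 1.67, and GSTZ1, an enzyme of tyrosine breakdown, fell, with -1.14 and -1.20. From weaning to 4 d postweaning MGST1 rose by 1.86 (adjusted p = 0.0286) and MGST3 by 1.03 (adjusted p = 0.0270) in control. In the amoxicillin arm PRDX2 fell by 0.79 (adjusted p = 0.0047) and PDIA4, a protein-folding enzyme of the endoplasmic reticulum, rose by 1.08 (adjusted p = 0.0099) in that step. Without the weaning piglets with high B cell markers these changes were 2.07 (adjusted p = 0.0201), 0.97 (0.0333), -0.77 (0.0070) and 1.13 (0.0100). NOS2, the inducible nitric oxide synthase, rose by 3.04 over the whole span in control (adjusted p = 0.0025) and had 0.88 in the amoxicillin arm (adjusted p = 0.399). NOS2 passed the filter only through the amoxicillin group of 4 d postweaning and the control group of 4 wk postweaning, where it was high. The control p-value therefore adds no support. Its control mean on day 1 was 7.07, with 1 of 6 arrays above the filter.

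The remaining lists moved in part. Among the thioredoxin, glutathione and NADPH genes TXN, GGT1 and IDH2 differed between ages in control and TXNRD2 in the amoxicillin arm, of 8 tested. Among the glutathione transferases and quinone reductases the counts were 4 and 2 of 7, and in the haem and iron list 2 and 2 of 6. Of the regulators, KEAP1 and HIF1A, neither differed in control and both did in the amoxicillin arm (adjusted p = 0.0044 and 0.0039). Of the 7 partners of SELENOS in the endoplasmic reticulum, DDIT3 differed in control and PDIA4 in the amoxicillin arm, and of the 2 oxidant producers 1 differed in each arm. No gene of the selenocysteine machinery was tested.

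**Figure D4:**
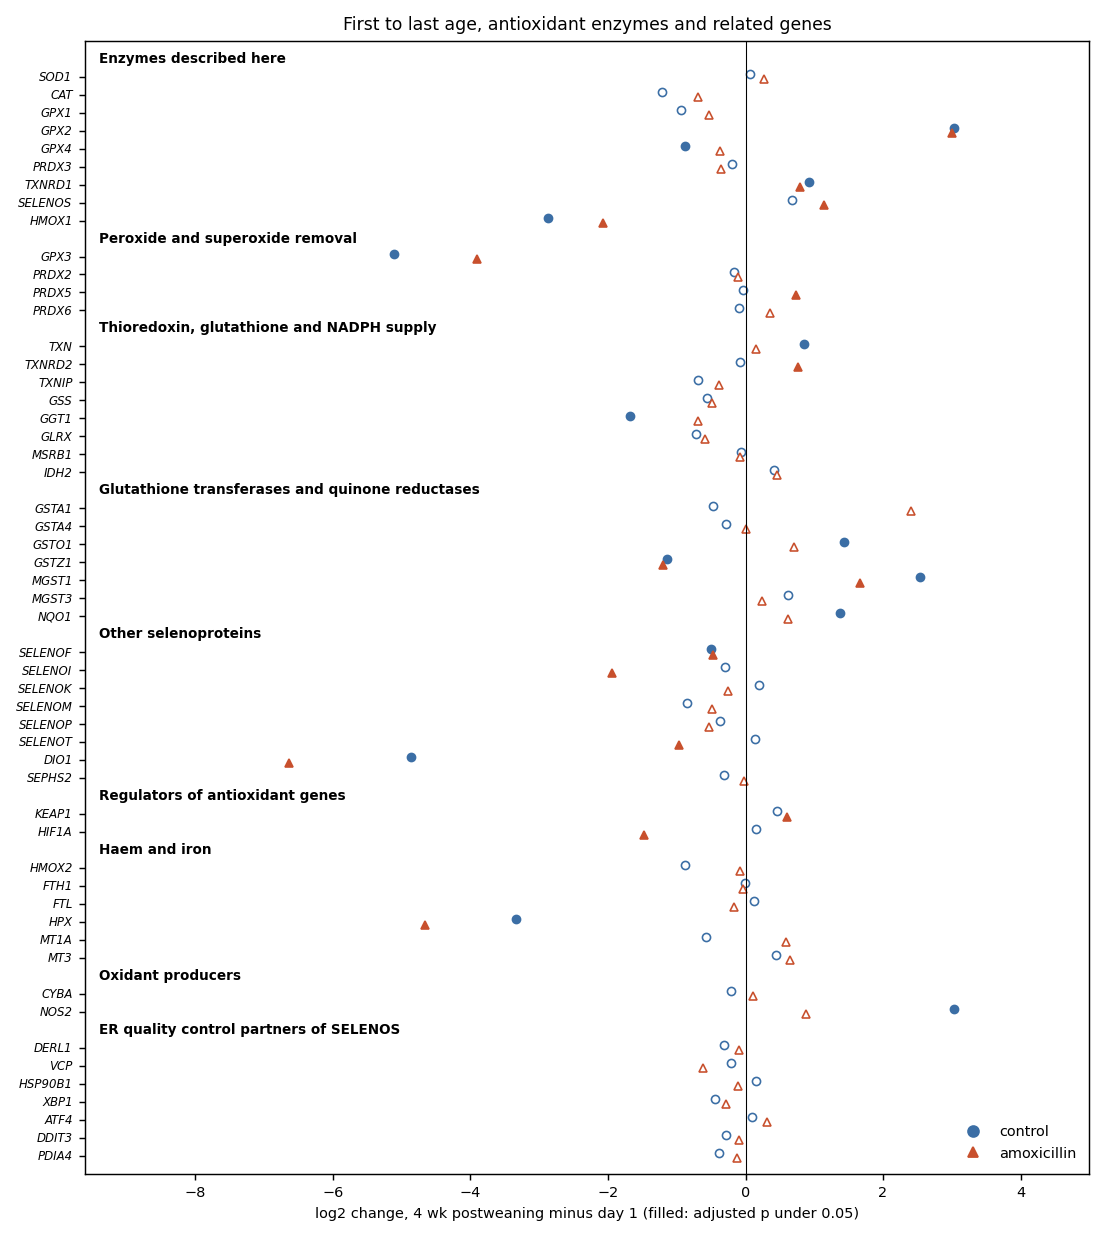
Log2 change from day 1 to 4 wk postweaning (horizontal axis) for the members and the 44 wider genes tested (vertical axis, grouped by list). Each gene has 1 point per arm, filled where the adjusted p was under 0.05. GPX3, DIO1 and HPX lie furthest to the left in both arms, DIO1 and HPX with amoxicillin levels of 4 wk postweaning that were not well above background. HMOX1 follows at -2.87 in control and -2.07 in the amoxicillin arm. GPX2 lies furthest to the right in the amoxicillin arm.

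Over the 43 arrays, the genes whose levels ran most like those of a member were named by the highest Pearson correlation among 1857 other tested genes with a symbol. These arrays share slides and ages, so the values are a description. HMOX1 ran closest to RENBP (r = 0.89, 0.66 within groups of the same age and arm) and RARRES2 (0.88, 0.45 within groups, with a saturated spot on 20 of 43 arrays), CAT to CYB5A (0.87) and FBP1 (0.85), and GPX2 to C2 and AGPAT4 (0.81 each). SOD1 ran closest to MYC (0.78) and C5 (0.72), GPX4 to FHL5 and PCK2 (0.76 each), and PRDX3 to ADD3 (0.75) and TPD52 (0.73). SELENOS ran closest to LETM1 and SETD3 (0.75 each), TXNRD1 to ATP1B1 (0.74, 0.27 within groups) and S100A16 (0.73, 0.24 within groups), and GPX1 to CERS4 (0.68) and CTSH (0.67). Between members, HMOX1 and TXNRD1 ran in opposite directions (r = -0.73), but within groups of the same age and arm r was -0.16. For CAT and GPX2 the value was -0.65 over all arrays and -0.53 within groups.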

How the data were processed

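RNA of jejunal scrapings was hybridised singly to Agilent one-colour arrays on 6 slides, 3 per arm. The deposited scanner files hold median spot and background intensity from Feature Extraction 10.7.3.1, and the authors' table holds log2 intensity made with limma under R 3.0.2. From the scanner intensities, background was corrected by normexp (offset 1) and arrays were quantile-normalised with limma 3.58.1 under R 4.3.3, which gave the authors' deposited log2 values to within 5.0e-09. Spots flagged as outliers (45 to 375 per array) were left out, and probes of an accession were averaged. A gene was tested if its value was above 1.1 times the brightest dark spot (7.68 on the log2 scale) on all arrays of at least 1 of the 10 groups. Genes lacking a value on some arrays (296 of 12771) were fitted without those arrays; no member lacked one. The fit, its contrasts and F-tests were checked on simulated data.

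The members, the wider lists and the marker lists were chosen with earlier results of these data known. Members were all named, the 2 most alike genes per member by correlation, and from the wider lists up to 3 called genes per comparison with the largest change, beside genes named after their values were seen. Symbols came from a RefSeq gene table, which matched 3037 of 35884 accessions. The build behind the probes is not given in the sources used here, so no positions are printed. Piglets were separate animals per the methods, but littermates could recur at different ages of an arm. The labels name no sow, so litter was not in the fits. The arrays labelled piglet 19 and 19B of control day 1 differed with an SD over genes of 0.52, where the other pairs of that group gave 0.39 to 0.56, and were kept apart. The number of arrays limits the precision. Alternatives were other background corrections, scalings and filters, 1 value per probe, slide or piglet number as a block, array weights, each age alone, and leaving out each array. Keeping flagged spots beside an unchanged filter and leaving out 2 weaning arrays together were added after seeing the data.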

Additional observations from a re-analysis of the deposited data

Results flagged for a closer look

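Within groups of 4 to 6 piglets a single piglet stood apart in 6 of 72 gene and group combinations, where chance gives about 1 in 20. At 4 d postweaning control piglet 30 had the lowest SOD1 of its group, 15.78 against 15.94 to 16.00, and the highest CAT, 12.50 against 10.90 to 11.18. Of the 10 SOD1 spots of that group 9 were saturated. The other SOD1 values lay near the scanner's ceiling, so the rate of 1 in 20 does not apply to that gap. On day 7 amoxicillin piglet 21 had the highest PRDX3, 13.00 against 12.45 to 12.48, and the highest SELENOS, 13.88 against 12.35 to 12.60. On day 1 control piglet 19 had the highest SELENOS, 12.94 against 12.39 to 12.56, and at 4 d postweaning amoxicillin piglet 33 had 14.42 against 13.29 to 13.45. The treatment difference of SELENOS depended on age by the interaction test, with an adjusted p of 0.0410.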

How the results depend on the processing

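No result changed direction under any alternative or without any single array. At weaning the single treatment call became 0 with the processed signal, with each age fitted alone and with slide as a random block, and leave-one-out gave 0 to 1. At 4 d postweaning 1 member passed with a log2 change beyond 1 or with no fold threshold (leave-one-out 0 to 1). The count of members that differed between ages in control, 5, was 3 with slide as a random block, 0 with slide as a fixed block (68 of all genes passed, 0.532%) and 8 with array weights (leave-one-out 5 to 6). In the amoxicillin arm it was 4 to 5 under all alternatives. The single call for a treatment difference that depended on age became 0 with the processed signal, with normexp at a common 75th percentile, with outlier-flagged spots kept in gene and dark spots alike (3752 genes tested) and with slide as a random block (leave-one-out 0 to 1). The 7 steps became 3 with the processed signal, 4 with no filter, with 1 value per probe name, with the authors' table and with slide as a fixed block, and 12 with array weights (leave-one-out 5 to 9). The causes were not tested. With the piglet number as a replicate block the counts were unchanged, at 1, 5, 5, 1 and 7, and SELENOS at weaning was -1.90 (adjusted p = 0.0029). Of 10 pairs of arrays with the same number at 1 age, 4 correlated above 0.1. The correlations ran from -0.27 to 0.44, which does not settle whether the numbers pair the arrays. Scan dates coincided with slides, so scan date as a block was not run.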
